A study of Danio rerio with 9 samples.

Results

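MZ*mondoa* embryos with disturbed epiboly ("affected") were compared with wild-type embryos across all measured genes. These are 6 of the 9 libraries of the series, 3 of each group, chosen by the genotype and phenotype labels. The remaining 3 libraries are MZ*mondoa* embryos whose epiboly looked normal ("unaffected"), and they serve here only to show where affected embryos differed from mutants of the same genotype. Both mutant groups carry the ka405 allele, a small frameshift deletion in *mondoa* (gene symbol *mlxip*) that is predicted to remove the DNA-binding domain, and they are maternal-zygotic, so neither the egg nor the embryo had an intact copy. The genotype label of the other embryos is wild-type. The study's wild-type fish descended from the AB or the golden strain, and its methods do not say which gave these embryos. Each library is a pool of whole embryos, and the labels give 5 hours post fertilization for every group. The study's methods place the sampling later, when the controls were near the end of epiboly and affected mutants could be told by eye, and this disagreement was not resolved. Affected embryos are the minority of the mutants that showed the phenotype. The mutants descend from homozygous mothers and the wild-type embryos from other mothers, so genotype and parentage cannot be told apart. Nothing in the labels says whether the replicates came from separate clutches, and p-values measure only the spread between these libraries.

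MondoA belongs to the Mondo pathway, through which cells adjust transcription to their glucose supply. It pairs with Mlx and binds carbohydrate response elements in genes of sugar and lipid metabolism, of which *txnip* is a well-known target. Epiboly is the first large movement of the zebrafish embryo, in which an outer epithelium (the enveloping layer), the deep cells below it and the yolk syncytial layer, a nucleated layer of the yolk cell, spread over the yolk. While epiboly proceeds, the deep cells are sorted into endoderm, mesoderm and ectoderm by Nodal, BMP, Wnt, Fgf and retinoic acid signals, and the neural plate is given its order from head to tail, with Hox genes marking the hindbrain and spinal cord.

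The 6 libraries held 29653702 to 39299268 exonic counts each. Markers of the enveloping layer, yolk syncytial layer, endoderm, notochord, paraxial mesoderm, neural plate, epidermis and germ cells were detected in both groups, except that *mxtx2* and *apoa4b.1* of the yolk syncytial layer had at most 4 and 19 counts in any library. Late markers such as the eye lens gene *cryba1b* (0 counts in every library) and the globin gene *hbbe3* (at most 5) were at or near 0. Wild-type replicate 3 stood apart from the other wild-type libraries. The chi-square per degree of freedom between wild-type replicates was 54.1 and 67.7 for the pairs that held it and 23.1 for the other pair. Affected pairs gave 12.0 to 19.1. Unaffected replicate 3 also stood apart, with 38.4 and 37.5 for the pairs that held it against 9.06 for the other pair. Results that rest on wild-type replicate 3 are given without it.

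The transcript of the mutated gene was checked before the others. *mondoa* (*mlxip*) had 111, 113 and 51.9 CPM (counts per 1e+06 counts of the scaled library size) in wild-type replicates 1 to 3 and 15.0, 16.1 and 12.8 CPM in affected replicates 1 to 3. The groups did not overlap, although wild-type replicate 3 was below the other wild-type libraries. The log2 fold change, affected over wild-type, was -2.65 ± 0.29 (SE, as after every log2 fold change below; edgeR quasi-likelihood test, Benjamini-Hochberg adjusted p = 0.000252). Across all genes, 5144 of 16962 tested (30.3%) passed an adjusted p of 0.05 in edgeR, 2606 higher (15.4%) and 2538 lower (15%) in affected embryos. These shares are the background against which the counts of each gene group below are read. The groups did not overlap in 45.1% of the genes tested. Genes named for the largest change in a list or over all genes were picked among those whose groups did not overlap. For these genes the lack of overlap is a condition of the choice and no added support. Among the called genes, 1098 (6.47% of those tested) were at least 2-fold higher and 1191 (7.02%) at least 2-fold lower. The median log2 fold change of all tested genes was -0.02, with 48.3% of genes above 0. Without wild-type replicate 3, 4903 genes were called, without affected replicate 1, 3496, and without affected replicate 2, 3402. Where leaving out 1 library moved the count of called list members by more than 1.5 times and by more than 1 member, the lowest or highest count is given beside it.

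The largest changes among well-expressed genes lay in genes of diverse function. The 12 largest falls also held *mlxip* itself and a row of the Mondo target *txnip* (ENSDARG00000036107). The levels of *txnip* are not described here. In the list of Mondo target genes 3 of 17 tested members rose and 3 fell, with a median log2 fold change of 0.01. *nr0b2*, a nuclear receptor that represses other nuclear receptors, had 7.48, 14.6 and 21.6 CPM in wild-type and 60.8, 83.8 and 65.5 in affected libraries (log2 fold change 2.26 ± 0.32, edgeR adjusted p = 0.000922). *cd44a*, a receptor for the matrix sugar hyaluronan, had 20.2, 6.40 and 16.1 CPM in wild-type and 83.3, 89.2 and 71.1 in affected libraries (log2 fold change 2.51 ± 0.34, edgeR adjusted p = 0.000726). Every affected library of both genes lay above every wild-type library. Other rises by the same rule included the zinc finger factor *mecom* (2.34, log2), the actin-capping gene *capg* (2.3), the ubiquitin ligase *rnf14* (ENSDARG00000078683, 2.25), *xkr5b* (2.23) and *znf1063* (2.53). Among the falls, a row of the creatine kinase gene *ckb* (ENSDARG00000069752) had 89.9, 164 and 94.4 CPM in wild-type and 12.7, 11.6 and 11.4 in affected libraries (log2 fold change -3.29 ± 0.22, edgeR adjusted p = 1.80e-05). *aldh1l1*, an enzyme of folate metabolism, fell from 112, 58.1 and 106 to 13.1, 12.0 and 13.1 CPM (log2 fold change -2.86 ± 0.24, edgeR adjusted p = 6.94e-05). The groups were well apart for both genes. *itih3b.2* (log2 fold change -3.73), *wdr47* (ENSDARG00000099757, -3.92) and *akna* (-2.59) were among the other falls of this kind. Of the rises and falls named in this paragraph, only *rnf14* was also called against unaffected mutants. Its log2 difference was 1.49 (edgeR adjusted p = 0.0239, up to 0.0922 with a library left out). The others were not called between the mutant groups, so they are not shown to be particular to disturbed epiboly. The share of members called in each gene list is plotted for 34 of the 56 lists.

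**Figure D1:**
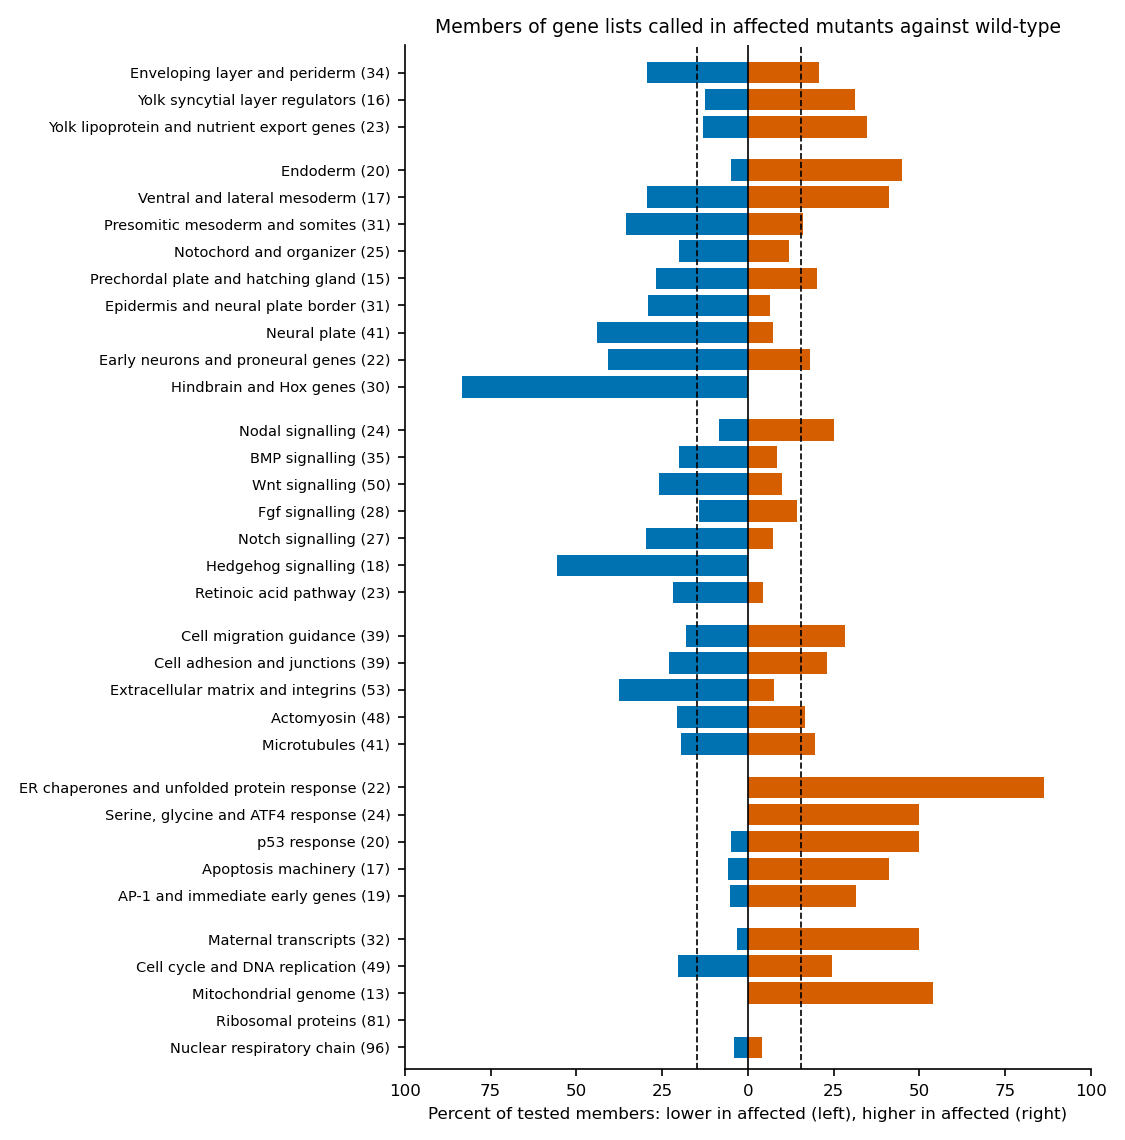
Percent of the tested members of each gene list that were called lower (blue, left) or higher (orange, right) in affected embryos than in wild-type (edgeR adjusted p under 0.05), with the number of tested members in parentheses. Dashed lines mark the shares over all 16962 genes, 15% lower and 15.4% higher. Bars run furthest to the left for the hindbrain and Hox genes (25 of 30 lower) and furthest to the right for the chaperones of the endoplasmic reticulum (19 of 22 higher).

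Genes that mark the hindbrain and spinal cord had the highest share of called members among the plotted lists of germ layers and tissues. Of its 30 tested members 25 fell and 0 rose in edgeR, against 15% lower over all genes, and 0 were higher at an unadjusted p under 0.05 or in DESeq2. The median log2 fold change was -2.16. With any 1 of the 6 libraries left out, 22 to 26 members were called lower. With at least 10 counts in every library, fewer members were tested, 11 were called lower and the median was -1.52. In these pools of whole embryos, fewer cells of a type and less RNA per cell cannot be told apart. The list's summed level was 589.8 to 697 CPM in wild-type and 283 to 331 CPM in affected libraries. The 23 Hox gene rows, which specify position along the body axis, lay lower in every affected library than in every wild-type library, and 21 of them were called. Over all genes, 22.5% lay lower in this way. *hoxb1b*, expressed early and at the front of the Hox domain, had 71.8, 79.1 and 83.7 CPM in wild-type and 28.8, 28.3 and 42.3 CPM in affected libraries (log2 fold change -1.24 ± 0.23, edgeR adjusted p = 0.00313). For *hoxb7*, from further back in the order, the values were 4.03, 3.61 and 4.09 CPM and 0.482, 0.538 and 0.971 CPM (log2 fold change -2.54 ± 0.45, edgeR adjusted p = 0.00267). *hoxa9a*, expressed toward the tail, had 3.78, 3.52 and 4.55 CPM in wild-type and 0.207, 0.0673 and 0.689 CPM in affected libraries (log2 fold change -3.58 ± 0.63, edgeR adjusted p = 0.00263). Wild-type and affected libraries did not overlap for these genes, and the weakly expressed ones were near the limit of detection in affected embryos, where 3 counts were worth 0.0940 to 0.103 CPM. *hoxd4* (log2 fold change -2.88, edgeR adjusted p = 0.00561) and a *hoxb5* row (ENSDARG00000054030, -3.84, adjusted p = 0.00115) fell in the same way. Of the 23 Hox rows, 19 stayed under 10 CPM in every library. Rows as low in affected libraries as *hoxa9a* passed the filter on low counts through the other groups, which tilts the tested rows toward falls.

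**Figure D2:**
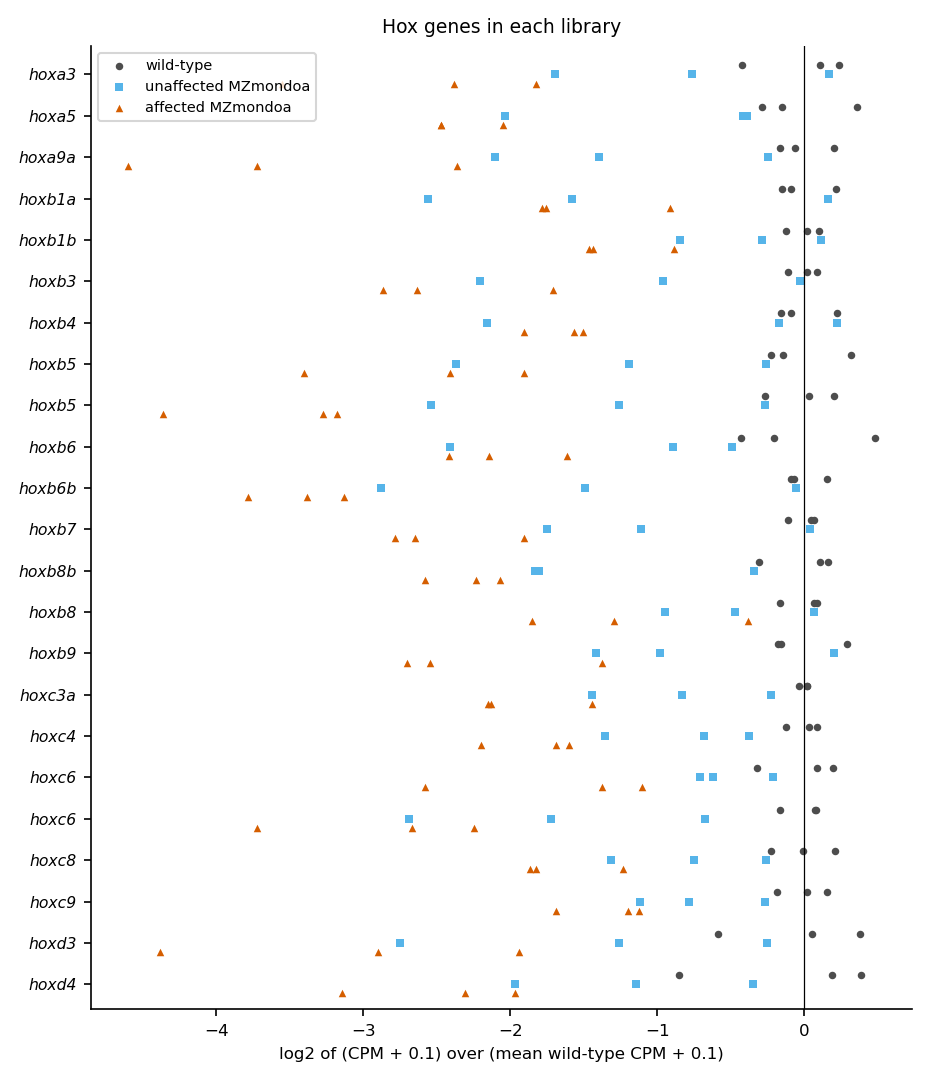
Level of each of the 23 tested Hox rows in each library, as log2 of CPM plus 0.1 over the wild-type mean CPM plus 0.1. Circles are the 3 wild-type, squares the 3 unaffected and triangles the 3 affected libraries. Triangles sit to the left of all circles in every row, while the squares spread between them, with unaffected replicate 3 the highest of its group in 22 of 23 rows.

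Unaffected mutants did not form a tight group in the plot of Hox levels. For *hoxb1b* the unaffected replicates 1 to 3 had 64.1, 43.5 and 84.8 CPM, and for *hoxa9a* 1.44, 0.844 and 3.32 CPM. Unaffected replicate 2 was the lowest of its group in 21 rows, and unaffected replicate 3 reached at least the lowest wild-type level in 12. In unaffected embryos against wild-type, where 9.6% of all genes were called (4.65% higher, 4.95% lower), 0 members of the list were called in edgeR, 10 were lower and 0 higher at an unadjusted p under 0.05, and the list median was -0.77. Tested directly against unaffected mutants, 1 of the 30 members was called lower in affected embryos, with 1.11% lower over all genes. Maternal transcripts, described below, moved the opposite way in affected embryos, with 16 of 32 members higher, and their part in the Hox result was not tested. Developmental stage and phenotype cannot be told apart in these libraries.

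Retinoic acid, made in the paraxial mesoderm, switches on Hox genes in the adjacent neural plate. Of 23 tested genes of its pathway 5 fell and 1 rose, with a median log2 fold change of -0.25, and only 2 fell without affected replicate 1. *dhrs3* (ENSDARG00000044982), which turns retinaldehyde back into retinol and is itself induced by retinoic acid, had 10.4, 5.67 and 5.29 CPM in wild-type and 0.310, 0.0673 and 0.282 CPM in affected libraries (log2 fold change -4.99 ± 0.99, edgeR adjusted p = 0.00445). It was low and near the limit of detection in every affected library, and its fold change rests on these levels. The unaffected values of 1.54, 0.317 and 7.01 CPM spanned nearly the whole range. The receptor gene *raraa* fell from 34.2, 33.1 and 26.5 CPM to 15.3, 14.5 and 18 CPM (log2 fold change -0.97 ± 0.17, edgeR adjusted p = 0.00279). The enzyme that makes retinoic acid, *aldh1a2*, was not called (log2 fold change -0.11 ± 0.10, edgeR adjusted p = 0.445), and neither was *cyp26a1*, which degrades it (-0.15 ± 0.09, adjusted p = 0.241).

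Genes of the neural plate and of early neurons were lower more often than higher. In the neural plate list 18 of 41 tested members fell and 3 rose (median log2 fold change -0.38), although only 7 fell without affected replicate 1. In the list of early neurons and proneural genes 9 of 22 fell and 4 rose (median -0.62), with 4 falls without affected replicate 1 and 1 rise without affected replicate 2. *olig2*, a factor of motor neuron precursors, had 29.0, 24.8 and 27.3 CPM in wild-type and 2.17, 4.51 and 7.14 CPM in affected libraries (log2 fold change -2.55 ± 0.54, edgeR adjusted p = 0.00600). The motor and sensory neuron factor *isl2a* had 3.29, 3.61 and 4.55 CPM and 0.930, 1.21 and 1.63 CPM (log2 fold change -1.60 ± 0.30, edgeR adjusted p = 0.00331). For *dlb*, a Notch ligand of newborn neurons, the values were 6.21, 6.05 and 7.57 CPM and 3.86, 3.43 and 2.63 CPM (log2 fold change -1.0 ± 0.23, edgeR adjusted p = 0.00919). Wild-type and affected libraries were separate for all 3 genes. The neural plate factor *pou3f1* fell as well (log2 fold change -1.53, edgeR adjusted p = 0.00311). The early pan-neural genes *sox3* (-0.12 ± 0.08, edgeR adjusted p = 0.275) and *sox19a* (-0.12 ± 0.09, adjusted p = 0.331) were not called. The related gene *sox2*, the first member of the list, was lower in affected embryos. It had 158 to 161 CPM in wild-type and 98.5 to 133 CPM in affected libraries, over the unscaled library size. In unaffected embryos the neural plate list had 1 member called higher and 2 lower against wild-type.

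Hedgehog signals from the midline pattern the overlying neural plate and the somites. Of 18 tested genes of this pathway 10 fell and 0 rose in edgeR (median log2 fold change -0.56), while 2 were higher at an unadjusted p under 0.05 and DESeq2 called 1 higher. With any 1 library left out 7 to 10 fell. A *shh* ligand row (ENSDARG00000038867) had 19.7, 20.6 and 21.9 CPM in wild-type, 17.0, 15.7 and 24.5 in unaffected and 9.06, 8.21 and 12.4 in affected libraries (log2 fold change -1.07 ± 0.19, edgeR adjusted p = 0.00302). The further *shh* row (ENSDARG00000068567) had 7.32, 6.51 and 7.17 CPM in wild-type and 3.93, 4.1 and 4.29 CPM in affected libraries (log2 fold change -0.77 ± 0.14, edgeR adjusted p = 0.00326). Affected libraries of both rows lay below all wild-type libraries, and the name table does not say which row is *shha* and which *shhb*. The mediator *gli2* (ENSDARG00000025641) fell from 49.5, 57.3 and 36.5 CPM to 23.6, 24.3 and 22.4 CPM (log2 fold change -1.03 ± 0.15, edgeR adjusted p = 0.000984). *shh* is made by the notochord and floor plate, and the notochord and organizer list had 3 of 25 members higher, 5 lower (3 without affected replicate 1) and a median log2 fold change of 0.02. Its members *noto* (0.02 ± 0.09, edgeR adjusted p = 0.894) and *tbxta* (0.02 ± 0.15, adjusted p = 0.918), the defining factors of the notochord, were not called. The Notch list had 8 of 27 members lower and 2 higher, but 2 lower without affected replicate 1.

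Mesoderm genes were grouped by their position in the gastrula. In the presomitic mesoderm and somites 11 of 31 tested members fell and 5 rose (median log2 fold change -0.37), with 5 falls without affected replicate 1 and 2 rises without affected replicate 2. *tbx16l*, a T-box factor of the presomitic mesoderm, had 75.6, 76.8 and 72.7 CPM in wild-type and 30.2, 37.9 and 42.2 CPM in affected libraries (log2 fold change -1.03 ± 0.13, edgeR adjusted p = 0.000510). The muscle determination gene *myod1* had 8.25, 11 and 6.25 CPM and 1.62, 2.56 and 4.32 CPM (log2 fold change -1.58 ± 0.37, edgeR adjusted p = 0.0106). The groups did not overlap for either gene. *tbx16*, which acts earlier in the same tissue, was not called (log2 fold change 0.44 ± 0.20, edgeR adjusted p = 0.118). *msgn1*, the next member of the list, leaned the other way. It had 362 to 509 CPM in wild-type and 214 to 359 CPM in affected libraries, over the unscaled library size. These *msgn1* ranges nearly touch, and they overlap with the scaling used for the other CPM values. No test result is given for *msgn1* here. In the ventral and lateral mesoderm 7 of 17 members rose and 5 fell, the falls dropping to 1 without affected replicate 1. *lmo2*, a cofactor of blood and vessel formation, had 2.31, 0.436 and 0.457 CPM in wild-type, 8.44, 12.06 and 8.91 in unaffected and 10.9, 10.8 and 10.3 in affected libraries (log2 fold change 3.34 ± 0.50, edgeR adjusted p = 0.00111). *tbx20*, a heart field factor, had 0.338, 0.204 and 0.152 CPM in wild-type, 5.57, 5.59 and 3.16 in unaffected and 4.69, 4.57 and 1.91 in affected libraries (log2 fold change 4.01 ± 0.46, edgeR adjusted p = 0.000325). For both genes all 6 mutant libraries, whatever the epiboly phenotype, lay above the wild-type libraries, and the fold change of *tbx20* rests on wild-type levels near the limit of detection.

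Endoderm genes leaned to the higher side. Of 20 tested members 9 rose and 1 fell, against 15.4% and 15% over all genes, with a median log2 fold change of 0.45 and 7 to 9 rises with any 1 library left out. *sox32*, the switch gene of zebrafish endoderm, had 36.6, 45.3 and 38.7 CPM in wild-type and 78.6, 90.3 and 69.0 CPM in affected libraries (log2 fold change 0.98 ± 0.15, edgeR adjusted p = 0.00134). *mixl1*, which acts between Nodal and *sox32*, had 7.94, 6.95 and 4.42 CPM and 21.5, 25.3 and 15.4 CPM (log2 fold change 1.69 ± 0.38, edgeR adjusted p = 0.00843). For *eomesa*, a T-box factor supplied by the mother and needed for endoderm, the values were 1.66, 1.72 and 1.25 CPM and 3.79, 5.55 and 3.13 CPM (log2 fold change 1.43 ± 0.31, edgeR adjusted p = 0.00725). All affected libraries exceeded all wild-type libraries for the 3 genes. *gata6*, which is expressed in endoderm and in the yolk syncytial layer, rose from 108, 113 and 102 CPM to 228, 239 and 168 CPM (log2 fold change 0.98 ± 0.19, edgeR adjusted p = 0.00366). *foxa2*, also an endoderm marker, was not called (log2 fold change 0.05 ± 0.11, edgeR adjusted p = 0.791). Tested directly against unaffected mutants, 1 of the 20 members was called higher in affected embryos, with 1.88% higher over all genes.

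Ligands and early targets of the signals that pattern the gastrula were examined next. The Nodal list had 6 of 24 members higher and 2 lower, with 2 higher without affected replicate 1 and 4 lower without wild-type replicate 3. The ligand *ndr1*, which is normally switched off during gastrulation, had 0.185, 0.145 and 0.178 CPM in wild-type and 1.62, 1.55 and 0.658 CPM in affected libraries (log2 fold change 2.88 ± 0.47, edgeR adjusted p = 0.00171). Affected libraries were 3 times or more above all wild-type libraries, at a low absolute level. The fold change rests on wild-type levels near the limit of detection, where 3 counts were worth 0.0762 to 0.0922 CPM. The gene passed the filter on low counts only through mutant libraries. The Nodal inhibitor *lft1* fell from 36.8, 32.5 and 34.2 CPM to 26.7, 26.9 and 24.3 CPM (log2 fold change -0.41 ± 0.10, edgeR adjusted p = 0.0100). On the ventral side, *vox* and *vent* encode repressors that keep dorsal genes off. *vox* had 257, 217 and 249.8 CPM in wild-type and 330.5, 426 and 398 CPM in affected libraries (log2 fold change 0.67 ± 0.11, edgeR adjusted p = 0.00208). *vent* had 89.2, 71.7 and 67.2 CPM and 118, 146 and 114 CPM (log2 fold change 0.73 ± 0.14, edgeR adjusted p = 0.00359). Both rose with no overlap between the groups, as did the ligand *bmp2* (log2 fold change 0.57, edgeR adjusted p = 0.00521), while the receptor gene *bmpr2* fell (-1.14, adjusted p = 0.00325). Over the whole BMP list 3 of 35 members were higher and 7 lower, against 5 higher and 2 lower without affected replicate 1. Among the Wnt and Fgf ligands, a *wnt8a* row (ENSDARG00000052910, 0.67, edgeR adjusted p = 0.00581), the convergence ligand *wnt11f2* (0.90, adjusted p = 0.000762) and *fgf8a* (0.53, adjusted p = 0.00577) rose. The Wnt list as a whole had 13 of 50 members lower and 5 higher (7 lower without affected replicate 2 and 3 higher without affected replicate 2), and the Fgf list 4 higher and 4 lower of 28 (2 higher without affected replicate 2, 1 lower without wild-type replicate 2).

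**Figure D3:**
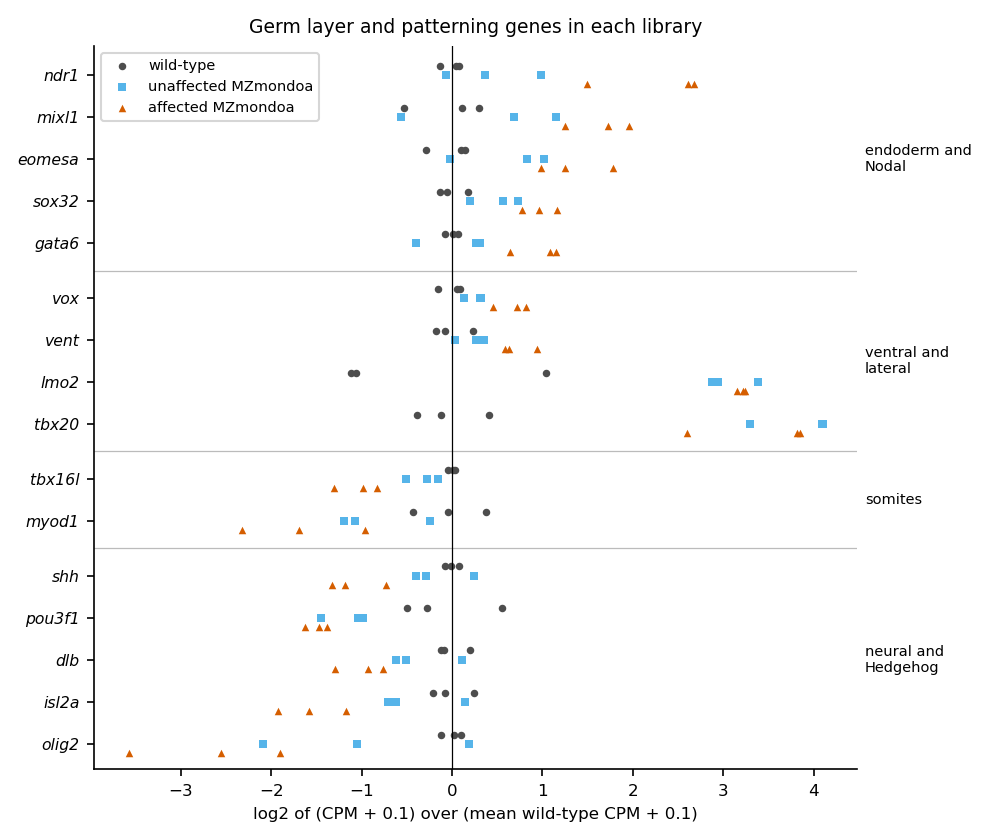
Levels of 16 germ layer and patterning genes in each library, as log2 of CPM plus 0.1 over the wild-type mean CPM plus 0.1. Circles are wild-type, squares unaffected and triangles affected libraries, 3 of each, and gray lines separate the groups of genes. Endoderm and ventral genes have triangles to the right of the circles, and somite, Hedgehog and neural genes to the left, while *lmo2* and *tbx20* have squares and triangles together on the right.

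Genes of the surface epithelium and of the yolk cell, which carry epiboly, were examined as separate lists. In the enveloping layer and periderm list 10 of 34 tested members fell and 7 rose (median log2 fold change -0.21), with 7 to 11 falls with any 1 library left out. Without wild-type replicate 3 the list median was -0.06, with 8 falls and 8 rises. *krt17*, a keratin of this layer, had 331, 214 and 422 CPM in wild-type and 72.4, 88.5 and 141 CPM in affected libraries (log2 fold change -1.68 ± 0.30, edgeR adjusted p = 0.00291). The annexin *anxa1b* had 91.6, 106 and 139 CPM and 15.8, 22.3 and 28.3 CPM (log2 fold change -2.34 ± 0.32, edgeR adjusted p = 0.000737). A further annexin row, *anxa1*, went the other way, from 279, 184 and 441 CPM to 1321, 1337 and 991 CPM (log2 fold change 2.01 ± 0.30, edgeR adjusted p = 0.00108). All 3 genes separated the groups, as the rule that named them requires. The keratins *krt5* (-0.03 ± 0.09, edgeR adjusted p = 0.807) and *krt8* (-0.16 ± 0.10, adjusted p = 0.265) were not called. *krt4*, more abundant than *krt5*, had 4180 to 5430 CPM in wild-type and 2970 to 3630 CPM in affected libraries, here over the unscaled library size.

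In the yolk syncytial layer list 5 of 16 tested regulators rose and 2 fell, the same counts with any 1 library left out. *mxtx1*, a homeobox gene of this layer, had 22.7, 23.2 and 19.2 CPM in wild-type and 39.6, 48.8 and 42.3 CPM in affected libraries (log2 fold change 1.0 ± 0.14, edgeR adjusted p = 0.000843). *hnf4a*, a nuclear receptor that controls lipid export in liver and gut, had 37.2, 48.4 and 43.5 CPM and 120.5, 137 and 103 CPM (log2 fold change 1.48 ± 0.17, edgeR adjusted p = 0.000320). A *camsap2* row (ENSDARG00000062173), for a protein that binds the minus ends of microtubules, had 234, 268 and 213 CPM and 586, 551 and 423 CPM (log2 fold change 1.13 ± 0.19, edgeR adjusted p = 0.00186). Affected libraries were highest throughout. *gata4* fell from 7.94, 8.0 and 6.2 CPM to 3.14, 2.93 and 3.16 CPM (log2 fold change -1.26 ± 0.17, edgeR adjusted p = 0.000638), with 3.27, 2.60 and 2.65 CPM in unaffected libraries. Among genes for yolk lipoproteins and nutrient export 8 of 23 rose and 3 fell (median 0.33), and 11 rose without wild-type replicate 3. The list's summed level was 6417 to 8093 CPM in wild-type and 9833 to 10488 CPM in affected libraries, with no overlap. *apoc2*, the activator of lipoprotein lipase, had 6.15, 8.84 and 11.1 CPM in wild-type and 17.6, 23.0 and 21.0 CPM in affected libraries (log2 fold change 1.24 ± 0.20, edgeR adjusted p = 0.00149). An *afp4* row (ENSDARG00000095863) rose from 307, 351 and 450.1 CPM to 702, 743 and 663 CPM (log2 fold change 0.93 ± 0.13, edgeR adjusted p = 0.000784). Both genes were higher in every affected library than in any wild-type library. The lipoprotein scaffold *apob* fell from 177, 158 and 181 CPM to 81.8, 69.3 and 74.5 CPM (log2 fold change -1.19 ± 0.27, edgeR adjusted p = 0.00885), and the unaffected libraries had 68.9, 46.8 and 123 CPM.

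Genes of cell contact and of the extracellular matrix were then compared, since epiboly depends on adhesion and tension between its layers. In the matrix and integrin list 20 of 53 tested members fell and 4 rose (median log2 fold change -0.43), with 15 to 19 falls when 1 library was left out. In unaffected embryos 8 members were lower and 1 higher than wild-type (median -0.29), with 4.95% lower over all genes. Tested directly against unaffected mutants, 1 of the 53 members was called lower and 1 higher in affected embryos. Over all genes the shares were 1.11% lower and 1.88% higher. Fibronectin, the main matrix protein of the gastrula, was lower for both of its genes. *fn1* had 1539, 1621 and 1246 CPM in wild-type and 776, 713 and 836 CPM in affected libraries (log2 fold change -0.92 ± 0.14, edgeR adjusted p = 0.00114). *fn1b* had 177, 183 and 153 CPM and 69.6, 66.5 and 70.2 CPM (log2 fold change -1.31 ± 0.14, edgeR adjusted p = 0.000234). No affected library reached the lowest wild-type level of either gene. *frem2*, a protein of the basement membrane under the epidermis, fell from 21.5, 32.9 and 20.9 CPM to 4.79, 4.07 and 4.92 CPM (log2 fold change -2.45 ± 0.24, edgeR adjusted p = 0.000140). The integrin *itgb4* fell (log2 fold change -1.65, edgeR adjusted p = 0.00276), a *nid1* row (ENSDARG00000068710) for the basement membrane protein nidogen rose from low levels (1.72, adjusted p = 0.00298), and the laminin gene *lama1* was not called (-0.23 ± 0.30, adjusted p = 0.599).

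Adhesion and junction genes went both ways, 9 of 39 higher and 9 lower, with 5 lower without affected replicate 1. *epcam*, an adhesion protein of epithelia that the zebrafish enveloping layer needs for epiboly, had 164, 168 and 298 CPM in wild-type and 489, 414 and 397 CPM in affected libraries (log2 fold change 1.04 ± 0.21, edgeR adjusted p = 0.00475). The tight junction scaffold *tjp1b* had 55.7, 58.3 and 26.5 CPM and 21.4, 20.1 and 18.9 CPM (log2 fold change -1.22 ± 0.29, edgeR adjusted p = 0.0101). Wild-type replicate 3 was the wild-type library nearest to the affected ones for both genes, and the groups stayed apart. The claudin *cldnb* rose (0.94, edgeR adjusted p = 0.0115). Guidance genes had 11 of 39 members higher and 7 lower. *spns2*, a transporter of the migration signal sphingosine 1-phosphate, had 37.5, 35 and 31.0 CPM in wild-type and 89.0, 96.5 and 79.4 CPM in affected libraries (log2 fold change 1.36 ± 0.15, edgeR adjusted p = 0.000261). The growth factor receptor *pdgfra* had 35.2, 45.7 and 31.8 CPM and 8.68, 9.39 and 14.9 CPM (log2 fold change -1.77 ± 0.32, edgeR adjusted p = 0.00291). For *ptgs1*, a cyclooxygenase whose prostaglandin product is needed for the speed of zebrafish gastrulation, the values were 4.03, 3.37 and 4.68 CPM and 0.758, 0.471 and 1.28 CPM (log2 fold change -2.25 ± 0.45, edgeR adjusted p = 0.00458). *spns2* was the highest, and the other two genes the lowest, in the affected libraries. The apelin receptors *aplnra* (0.45, edgeR adjusted p = 0.00757) and *aplnrb* (0.42, adjusted p = 0.0104), which guide mesendoderm cells inward, rose slightly.

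Among cytoskeletal genes, actomyosin had 8 of 48 tested members higher and 10 lower, and microtubules 8 higher and 8 lower of 41. Left-out libraries took the rises to 4 for actomyosin (without affected replicate 2) and to 3 for microtubules (without wild-type replicate 2), and the microtubule falls to 4 (without affected replicate 2). The filamin row *flnb* (ENSDARG00000092281, actin crosslinking) rose from 4.0, 3.90 and 2.21 CPM to 10.7, 12.7 and 9.96 CPM (log2 fold change 1.73 ± 0.23, edgeR adjusted p = 0.000577), and the tropomyosin *tpm4a* fell from 17.0, 20.8 and 25 CPM to 8.92, 7.30 and 11.3 CPM (log2 fold change -1.19 ± 0.19, edgeR adjusted p = 0.00168). Calpains are proteases that cut adhesion and cytoskeletal proteins. *capn2b* had 16.5, 18.3 and 9.12 CPM in wild-type and 2.52, 3.83 and 4.57 CPM in affected libraries (log2 fold change -2.0 ± 0.33, edgeR adjusted p = 0.00184), and *capn2a* had 31.8, 20.5 and 34.6 CPM and 7.65, 11.3 and 13.3 CPM (log2 fold change -1.43 ± 0.24, edgeR adjusted p = 0.00211). Both calpains were lower in every affected library. In the list of calpains and secreted proteases 9 of 28 members fell and 5 rose, and 5 fell without affected replicate 2, while 8 rose without wild-type replicate 3. *ctslb*, a cathepsin of the hatching gland, fell from 9.14, 5.79 and 5.95 CPM to 1.1, 1.28 and 1.79 CPM (log2 fold change -2.32 ± 0.47, edgeR adjusted p = 0.00475).

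**Figure D4:**
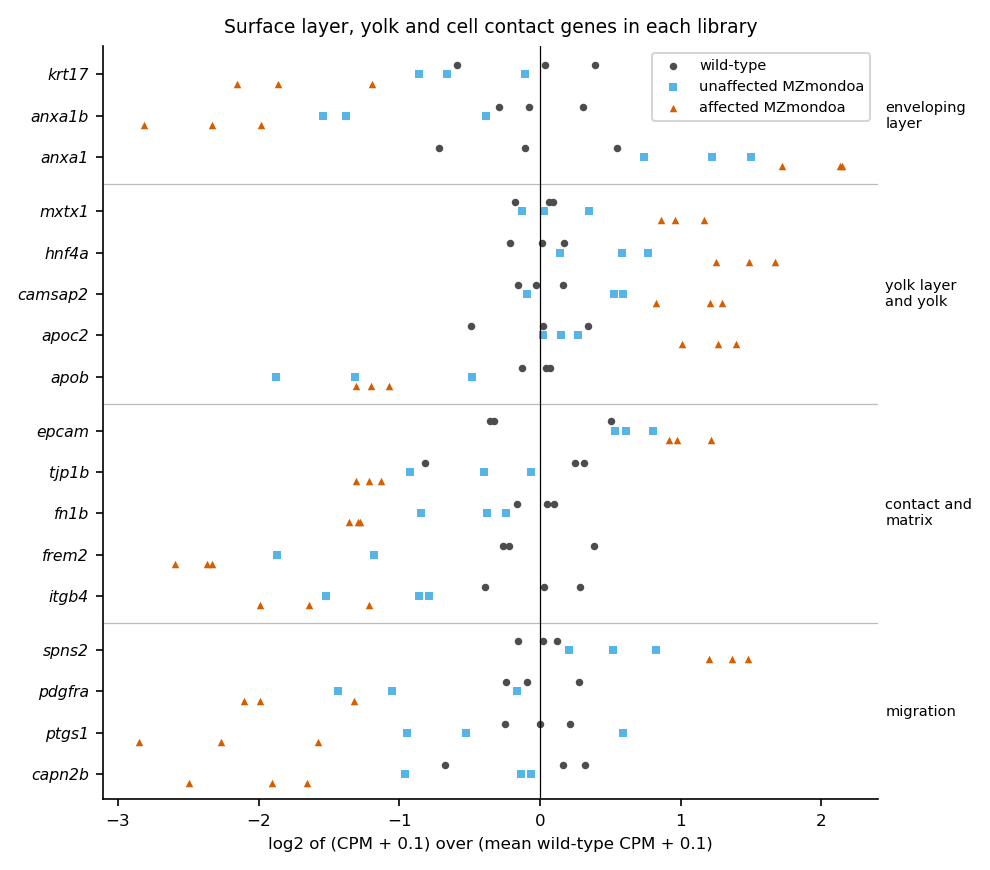
Levels of 17 genes of the enveloping layer, yolk, cell contacts and migration in each library, as log2 of CPM plus 0.1 over the wild-type mean CPM plus 0.1. Circles are wild-type, squares unaffected and triangles affected libraries, 3 of each. The triangles of *anxa1*, the yolk layer genes, *apoc2*, *epcam* and *spns2* lie to the right of the circles and those of the other genes to the left.

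Among the plotted lists, chaperones of the endoplasmic reticulum had the highest share of members called higher. The unfolded protein response raises chaperones when proteins fail to fold in the endoplasmic reticulum. Of 22 tested members of this list 19 rose and 0 fell in edgeR, against 15.4% higher over all genes, and 0 were lower at an unadjusted p under 0.05 or in DESeq2. The median log2 fold change was 0.73. The count was 12 without affected replicate 2 and 17 without wild-type replicate 3. *hspa5*, the main chaperone and sensor of this compartment, had 161, 114 and 114 CPM in wild-type and 302, 394 and 324 CPM in affected libraries (log2 fold change 1.39 ± 0.18, edgeR adjusted p = 0.000604). *hsp90b1*, its Hsp90 chaperone, had 66.5, 43.4 and 67.5 CPM and 133, 148 and 169 CPM (log2 fold change 1.34 ± 0.18, edgeR adjusted p = 0.000646). For the cochaperone *dnajb9* (ENSDARG00000016886) the values were 8.86, 4.07 and 5.03 CPM and 18.8, 26.7 and 22.7 CPM (log2 fold change 1.93 ± 0.28, edgeR adjusted p = 0.00102). The groups did not overlap for these genes, nor for the cochaperone *dnajc3a* (log2 fold change 1.69, edgeR adjusted p = 0.00512) and the transcription factor *xbp1* (0.38, adjusted p = 0.0126). In unaffected embryos 5 members were higher than wild-type, and the unaffected *hspa5* levels were 269, 222 and 178 CPM. Tested directly against unaffected mutants, 2 of the 22 members were called higher in affected embryos, with 1.88% higher over all genes.

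ATF4 is the factor that raises amino acid supply under stress, and its list had 12 of 24 members higher and 0 lower in edgeR (median log2 fold change 0.38), 1 being lower at an unadjusted p under 0.05 and 0 in DESeq2. The list had 8 higher without affected replicate 2. *slc3a2*, the heavy chain of amino acid exchangers, had 243, 279.8 and 309 CPM in wild-type and 758, 965 and 678 CPM in affected libraries (log2 fold change 1.53 ± 0.16, edgeR adjusted p = 0.000216). *aldh18a1*, the first enzyme of proline synthesis, had 34.5, 41.0 and 34.2 CPM and 135, 127 and 109 CPM (log2 fold change 1.76 ± 0.17, edgeR adjusted p = 0.000108). Affected libraries exceeded wild-type libraries by more than the spread within either group. *ddit3*, which links this response to cell death, rose from 1.94, 2.12 and 2.69 CPM to 5.58, 5.11 and 7.11 CPM (log2 fold change 1.39 ± 0.19, edgeR adjusted p = 0.000730).

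The p53 response list, targets of the tumour suppressor that halts or kills damaged cells, had 10 of 20 members higher and 1 lower (median log2 fold change 0.64). This count depended on the libraries and was 4 without affected replicate 1 and 13 without wild-type replicate 3. *mdm2*, the p53 ubiquitin ligase, had 23.0, 24.7 and 34.1 CPM in wild-type, 28.8, 39.6 and 32.8 in unaffected and 75.3, 66.1 and 72.9 in affected libraries (log2 fold change 1.39 ± 0.16, edgeR adjusted p = 0.000335). The cell death gene *bbc3* had 13.3, 17.1 and 23.3 CPM in wild-type, 13, 19.6 and 19.0 in unaffected and 33.1, 34.1 and 47.0 in affected libraries (log2 fold change 1.09 ± 0.23, edgeR adjusted p = 0.00592). Unaffected libraries overlapped wild-type for both genes, and affected libraries lay above. A *gadd45a* row (ENSDARG00000043581), which arrests the cell cycle, rose from 0.646, 0.959 and 1.78 CPM to 4.65, 3.46 and 6.71 CPM (log2 fold change 2.11 ± 0.39, edgeR adjusted p = 0.00327). Apoptosis machinery had 7 of 17 members higher and 1 lower. Its risen members included the survival gene *mcl1b* (42.5, 48.0 and 46.5 CPM in wild-type, 122, 160.4 and 123 in affected libraries, log2 fold change 1.56 ± 0.13, edgeR adjusted p = 5.96e-05) as well as *diabloa*, which frees caspases from their inhibitors (1.07, edgeR adjusted p = 0.000107), and the fall was the caspase *casp6* (-1.36, adjusted p = 0.00962).

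AP-1 factors are switched on within minutes by stress and wounding. Their list, with other immediate early genes, had 6 of 19 members higher and 1 lower, and at least 6 higher with any 1 library left out, while 3 were lower without affected replicate 3. *fosl1* had 1.17, 0.843 and 0.788 CPM in wild-type, 1.80, 1.48 and 1.55 in unaffected and 6.58, 8.44 and 7.99 in affected libraries (log2 fold change 3.04 ± 0.21, edgeR adjusted p = 2.39e-05). *jun* had 11.8, 8.0 and 11.5 CPM in wild-type and 32.1, 25.8 and 28.8 CPM in affected libraries (log2 fold change 1.47 ± 0.17, edgeR adjusted p = 0.000301). Affected libraries stood above all others for both factors. A *junb* row (ENSDARG00000104773) rose (1.23, edgeR adjusted p = 0.00108) and *jund* was not called (0.05 ± 0.14, adjusted p = 0.806). *gadd45bb*, a stress gene among the 12 largest rises of all genes, went from 10.1, 9.39 and 11.6 CPM to 47.2, 51.3 and 47.1 CPM (log2 fold change 2.22 ± 0.20, edgeR adjusted p = 9.13e-05). *nfkbiaa*, the inhibitor that NF-kB induces against itself, rose from 3.11, 4.1 and 6.2 CPM to 14.9, 12.24 and 11.4 CPM (log2 fold change 1.52 ± 0.25, edgeR adjusted p = 0.00176). The heat shock list had 4 of 19 members higher (2 without wild-type replicate 1) and 1 lower.

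**Figure D5:**
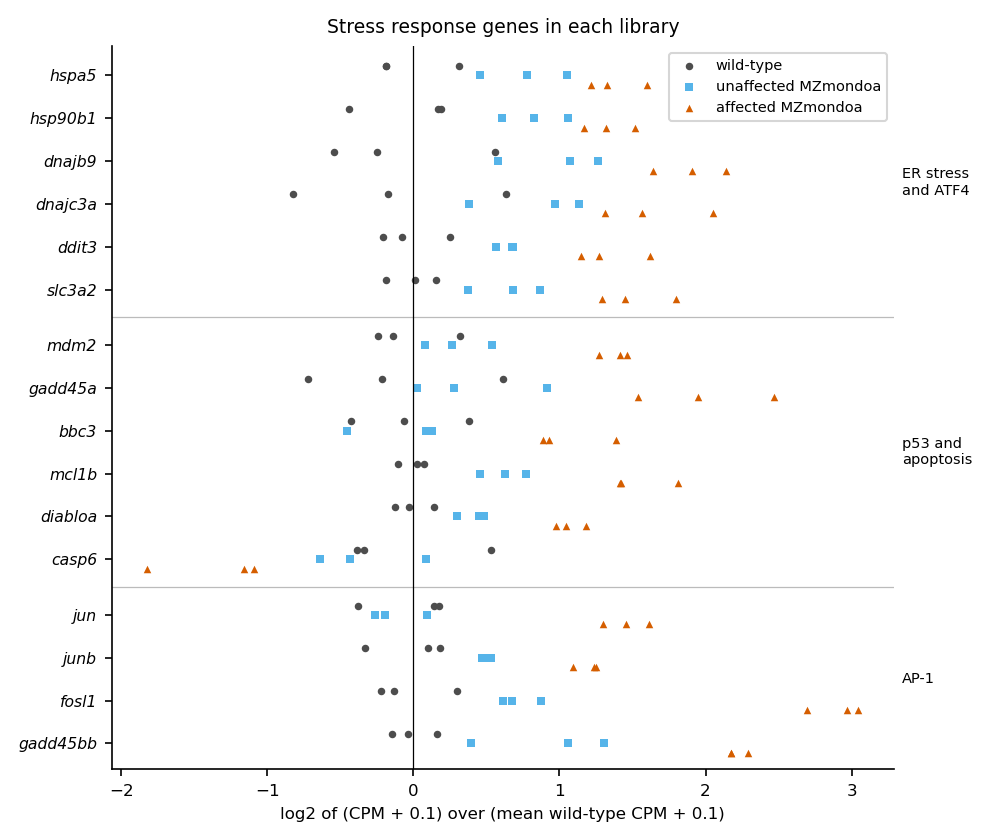
Levels of 16 stress response genes in each library, as log2 of CPM plus 0.1 over the wild-type mean CPM plus 0.1. Circles are wild-type, squares unaffected and triangles affected libraries, 3 of each. Triangles lie to the right of all circles for every gene but *casp6*, which is lower. The squares of *mdm2* and *bbc3* overlap the circles, while those of *fosl1* lie between the circles and the triangles.

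Maternal transcripts, which the egg supplies and which are cleared as the embryo's own genome takes over, were higher for 16 of 32 tested members and lower for 1 (median log2 fold change 0.63). When affected replicate 2 was left out the count was 7, and without wild-type replicate 3 it was 11. In unaffected embryos 2 members were called higher than wild-type. Tested directly against unaffected mutants, 0 of the 32 members were called in edgeR, with 1.88% higher and 1.11% lower over all genes. *npm2a*, an egg histone chaperone, had 0.523, 0.378 and 0.534 CPM in wild-type and 1.21, 1.35 and 1.1 CPM in affected libraries (log2 fold change 1.34 ± 0.26, edgeR adjusted p = 0.00387). *lmnl3*, the lamin of egg nuclei, had 1.91, 2.01 and 2.11 CPM in wild-type, 3.70, 3.76 and 3.76 in unaffected and 3.86, 5.32 and 4.73 in affected libraries (log2 fold change 1.2 ± 0.17, edgeR adjusted p = 0.000859). Both transcripts were scarce in all groups, and the affected libraries held the most of them. *zar1*, the first member of the maternal list, went the other way. It had 0.733 to 0.891 CPM in wild-type and 0.506 to 0.586 CPM in affected libraries, over the unscaled library size. The germ plasm organizer *buc* rose too (2.34, 3.02 and 1.75 CPM to 5.96, 6.09 and 3.98 CPM, log2 fold change 1.17 ± 0.26, edgeR adjusted p = 0.00748). Among germ cell genes, the helicase *ddx4* (vasa) rose from 25.6, 29.4 and 28.3 CPM to 52.8, 60.5 and 47.8 CPM (log2 fold change 0.95 ± 0.16, edgeR adjusted p = 0.00214) and *tdrd7a*, a germ granule protein, fell from 8.21, 8.32 and 7.37 CPM to 2.62, 3.77 and 2.26 CPM (log2 fold change -1.47 ± 0.24, edgeR adjusted p = 0.00170). *tdrd7a* stood at 2.48, 3.62 and 2.15 CPM in unaffected libraries. The germ list had 5 of 18 members higher (3 without affected replicate 2) and 4 lower (1 without affected replicate 1), with a median of 0.07. Over the unscaled library size, *nanos3* had 1.98 to 5.36 CPM in wild-type and 0.956 to 2.03 CPM in affected libraries. For *dnd1* the ranges were 2.29 to 4.58 CPM and 1.14 to 2.29 CPM.

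Cell cycle genes had 12 of 49 tested members higher and 10 lower, with a median of 0.00 and 7 higher without affected replicate 1. The MCM genes, which encode the replicative helicase, contributed to the falls. *mcm2* had 361, 417 and 441 CPM in wild-type and 192, 225 and 257 CPM in affected libraries (log2 fold change -0.85 ± 0.16, edgeR adjusted p = 0.00319). An *mcm6* row (ENSDARG00000057683) had 367, 446 and 465 CPM and 206, 212 and 245 CPM (log2 fold change -0.95 ± 0.13, edgeR adjusted p = 0.000624). Affected libraries were lowest for both. *mcm3* (-0.49, edgeR adjusted p = 0.00435) and *mcm4* (-0.61, adjusted p = 0.00644) fell too. The further *mcm6* row (ENSDARG00000033231), named here after its values were seen, went the other way (0.80, adjusted p = 0.00661), from 24.7, 23.3 and 16.5 CPM to 38.7, 37.1 and 36.9 CPM.

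Metabolic genes are the classical targets of the Mondo pathway in mammals. Among genes of sterol control and transport 6 of 13 tested members were higher and 2 lower, with a median log2 fold change of -0.28. *soat1*, which esterifies cholesterol for storage, had 4.80, 5.20 and 5.26 CPM in wild-type and 12.16, 13.3 and 15.8 CPM in affected libraries (log2 fold change 1.43 ± 0.15, edgeR adjusted p = 0.000182). *npc2*, which carries cholesterol out of lysosomes, had 242, 283 and 344 CPM and 496, 584 and 550.0 CPM (log2 fold change 0.91 ± 0.13, edgeR adjusted p = 0.000803). Every affected library lay above every wild-type library for both. The sterol exporter *abca1* fell from 196, 242 and 162 CPM to 112, 100.5 and 83.4 CPM (log2 fold change -1.02 ± 0.24, edgeR adjusted p = 0.0108). A row of the cholesterol synthesis enzyme *sqle* (ENSDARG00000079946) had 6.03, 5.99 and 8.08 CPM in wild-type, 3.99, 4.43 and 4.89 in unaffected and 2.31, 2.25 and 2.51 in affected libraries (log2 fold change -1.51 ± 0.18, edgeR adjusted p = 0.000339). *cyp17a1*, a steroid hormone enzyme, had 2.22, 2.91 and 2.06 CPM and 7.34, 9.62 and 4.48 CPM in wild-type and affected libraries (log2 fold change 1.58 ± 0.33, edgeR adjusted p = 0.00562). The wild-type and affected libraries were separate for the latter 3 genes as well. In the sterol synthesis list, which holds *sqle*, 0 of 12 tested members rose and 2 fell in edgeR (median log2 fold change 0.05). DESeq2 called 1 higher, and 3 were higher at an unadjusted p under 0.05. Its summed level was 319 to 332 CPM in wild-type and 345 to 372 CPM in affected libraries. The terpenoid backbone list, upstream of sterols, had 3 of 18 members higher and 0 lower in edgeR or DESeq2 (median 0.10). In the oxidation of fatty acids, the medium-chain enzyme *acadm* rose (1.18, edgeR adjusted p = 0.000571), while the short-chain enzyme *acads* (-1.38, adjusted p = 0.00344) and the mitochondrial entry step *cpt1ab* (-1.09, adjusted p = 0.00277) fell. The list had 5 of 20 members higher (3 without wild-type replicate 1) and 3 lower.

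Of 20 tested glycolysis genes 4 rose and 1 fell. A row of *gpi* (ENSDARG00000012987), the second enzyme of the pathway, rose (log2 fold change 1.09, edgeR adjusted p = 0.0104), as did the dehydrogenase *gapdhs* (1.2, adjusted p = 0.00935). The further *gpi* row (ENSDARG00000103826) was tested and is not described here. A row of the phosphofructokinase *pfkp* (ENSDARG00000012801) fell from 7.85, 7.04 and 6.99 CPM to 2.65, 3.70 and 3.57 CPM (log2 fold change -1.14 ± 0.17, edgeR adjusted p = 0.00130). The amino acid transporter *slc7a8* (0.90, edgeR adjusted p = 0.00413) and a row of the transporter *slc38a3* (ENSDARG00000027065, 2.03, adjusted p = 0.00183) rose. The further *slc38a3* row (ENSDARG00000091061) was also called, and its direction and values are not described here. Transcripts of the mitochondrial genome were higher for 7 of 13 members (median 0.45), and in unaffected embryos for 8 (median 0.54). *mt-co2*, a subunit of cytochrome oxidase, had 1478, 1353 and 2104 CPM in wild-type and 2288, 2732 and 3008 CPM in affected libraries (log2 fold change 0.70 ± 0.17, edgeR adjusted p = 0.0125). The nuclear genes of the respiratory chain had 4 of 96 higher (9 without wild-type replicate 3, 2 without affected replicate 3) and 4 lower (1 without affected replicate 2). Of 81 ribosomal protein genes 0 were called in edgeR, against 1 in DESeq2 and, at an unadjusted p under 0.05, 1 higher and 2 lower. Without wild-type replicate 3, edgeR called 1 of them higher.

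The affected embryos were finally compared with the unaffected mutants directly, which holds the genotype constant. In this comparison 507 of 16962 genes (2.99%) were called by edgeR, 319 higher (1.88%) and 188 lower (1.11%) in affected embryos. Alternatives were added after the data had been seen. Leaving out an affected library gave 67 calls (without replicate 1), 42 (without replicate 2) or 333 (without replicate 3), and leaving out an unaffected library gave 48 (without replicate 1), 511 (without replicate 2) or 97 (without replicate 3). A block for the replicate number, fitted over all 9 libraries, gave 1399 calls. That block also tied each wild-type library to the mutant libraries of its number, so it is not a pairing within the mutants alone. Of the genes named by the rule, 39 were called here, all 39 also with the block, and 5 with any 1 library left out. These 5 were *fosl1* (log2 difference 2.25 ± 0.20, edgeR adjusted p = 0.00159), *jun* (log2 difference 1.59 ± 0.17, edgeR adjusted p = 0.00409), *mid1ip1a*, a lipid synthesis regulator (log2 difference 1.88 ± 0.12, edgeR adjusted p = 0.000367), a row of the steroid hormone enzyme *cyp11a1* (ENSDARG00000002347, log2 difference 0.71 ± 0.09, edgeR adjusted p = 0.00885) and the keratin *krt5* (log2 difference -0.78 ± 0.09, edgeR adjusted p = 0.00570). *krt5* had 1135, 1189.8 and 1081 CPM in wild-type, 1831, 2007 and 1873 in unaffected and 1012, 1181 and 1133 in affected libraries. The unaffected libraries stood above the rest for this keratin (log2 fold change against wild-type 0.75, edgeR adjusted p = 0.000878), while affected and wild-type libraries overlapped. Among the 34 others were the yolk layer gene *mxtx1* (log2 difference 0.91, edgeR adjusted p = 0.0146, up to 0.0714 with a library left out), *mdm2* (1.08, 0.0134, up to 0.0569) and *fn1b* (-0.85, 0.0180, up to 0.0841).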

How the data were processed

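Total RNA was extracted from pooled embryos, and ribosomal RNA was depleted before stranded libraries were made per the labels' protocol, although the labels also name the molecule as polyA RNA. Per the study's methods and the submitters' processing notes, the authors demultiplexed the reads with bcl2fastq (2.17.1.14), aligned them with STAR (2.4.0i in the processing notes) to the GRCz11 genome with the Ensembl annotation and deposited raw counts of uniquely mapped read pairs in exons of each gene. Whether counting used strand is not given in the sources used here, so a gene and its antisense partner, and near-identical paralogues, may share reads. Several symbols stand for more than 1 row, and most of these rows are given with their identifiers.

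The counts were fitted with edgeR (4.0.16, R 4.3.3) by quasi-likelihood, with filterByExpr, TMM scaling, all 9 libraries in 3 groups and no covariate, and p-values were adjusted over the 16962 genes tested. CPM values use the scaled library sizes. In counts simulated for affected against wild-type (16681 genes tested), the fit called 96% of genes raised 4-fold, 85.4% lowered 4-fold, 66% raised 2-fold and 38.8% lowered 2-fold, and 9 of 16484 unchanged genes. The simulated counts held few changed genes and no library set apart from its group, so these rates need not hold for the real libraries. Alternatives were DESeq2 (1.42.0), other scalings and filters, a fit of the 6 libraries, the replicate number as a block and each library left out. For affected and unaffected libraries of the same number, deviations from the group means correlated at 0.169, 0.236 and 0.462. Correlations between mutant libraries of unlike number were not computed, so these values do not show that like numbers agree best. The number was still used as a block, over all 9 libraries. The fits with that block or without a mutant library were chosen after seeing the data. Any pairing is assumed from these values and is not stated in the labels.

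The comparison and the gene lists were chosen with earlier results of these data known. The genes that could be named are the first 3 tested members of each list, the 3 members of each list with the largest called change, a mean log2 CPM of at least 1 and groups that do not overlap, the 12 largest rises and 12 largest falls over all genes (mean log2 CPM of at least 3), and the members of the Mondo network. Not all of these 315 genes are described. The 139 given with a log2 fold change or difference, and 1 *mcm6* row outside the rule, were picked with their values known, mostly among genes whose call held under each alternative. No sequences are shown.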

Additional observations from a re-analysis of the deposited data

How the results depend on the processing

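The count of called genes, 5144, kept within 1.5 times of its value under DESeq2 (5451), DESeq2 size factors (5112), library size alone (5166), no filter on low counts (4991), at least 10 counts in every library (4385) and a fit of only the 6 libraries compared (4770). With any 1 of the 6 libraries left out it ranged from 3402 (without affected replicate 2) to 4903, the genes called higher from 1857 to 2526 and those called lower from 1545 to 2377. Library size alone moved the median gene to a log2 fold change of -0.08, with 43.1% of calls higher against 50.7%. Affected and wild-type libraries of the same number deviated together only weakly (r = 0.0805, 0.113 and 0.26), although each affected library correlated best with the wild-type library of its own number, a hint from the data and not from the design. The numbers were not taken as pairs, and a fit that blocked on the number called 6667 genes (3261 higher, 3406 lower), 5100 of them shared with the 5144. Of the 315 genes that the naming rule gives, 217 were called, and 158 of these kept direction and call under each of the 13 alternatives in which they were tested. The text gives a log2 fold change or difference for 140 genes, mostly picked among those that kept their call. The 128 called genes among them kept theirs by that choice, and 6 of the 128 were not tested with at least 10 counts in every library. Uncalled values near 0 changed sign for 5 genes, with an edgeR adjusted p of 0.24 or more throughout. These were *foxa2* (-0.0162 with library size alone, -0.0295 to 0.148 with a library left out), *jund* (-0.0132, -0.0241 to 0.208), *noto* (-0.0433, -0.0248 to 0.0585), *tbxta* (-0.0414, -0.115 to 0.141) and *krt5* (-0.0686 to 0.0349 with a library left out). Of 728 list medians recomputed, 156 moved by more than their spread. The Hox and hindbrain list had 11 lower calls with at least 10 counts in every library, where fewer of its members were tested. With the replicate block 12 ribosomal protein genes were called lower and 1 higher. Levels under 0.103 CPM in affected and 0.0922 CPM in wild-type libraries, or 3 counts, could not be told from 0.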

Other observations

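Single genes also changed in lists outside the main comparison of layers, movement and stress. Over all genes 30.3% were called, 15.4% higher and 15% lower. The called share was near this in the circadian (32%), oxidative stress (29.2%), hypoxia (25%) and epidermis (35.5%) lists. It was 40% for lysosome and autophagy genes and 45.5% for innate immunity. Lysosome and autophagy genes had 8 of 30 members higher and 4 lower. *ctsba*, a lysosomal protease, had 196, 445 and 578 CPM in wild-type and 1422, 1649.5 and 1578 CPM in affected libraries (log2 fold change 1.93 ± 0.30, edgeR adjusted p = 0.00136). *sqstm1*, the adaptor that brings cargo to autophagosomes, had 8.89, 8.37 and 5.59 CPM and 17.2, 17.4 and 25.4 CPM (log2 fold change 1.40 ± 0.22, edgeR adjusted p = 0.00142). *tfeb*, a transcription factor of lysosomal genes, had 17.7, 16.3 and 10.0 CPM in wild-type, 17.4, 16.2 and 11.6 in unaffected and 32.0, 45.5 and 34.7 in affected libraries (log2 fold change 1.35 ± 0.23, edgeR adjusted p = 0.00214). Wild-type and affected libraries were apart for all 3 genes, and the unaffected *tfeb* levels overlapped those of wild-type. The granulin *grna* fell from 4.12, 7.27 and 3.61 CPM to 0.620, 0.673 and 0.533 CPM (log2 fold change -3.03 ± 0.36, edgeR adjusted p = 0.000347), with 0.575, 0.879 and 0.379 CPM in unaffected libraries. A peroxiredoxin row, *prdx1* (ENSDARG00000058734), which removes peroxides, rose from 4.40, 7.79 and 10.8 CPM to 29.9, 33.0 and 30.6 CPM (log2 fold change 2.02 ± 0.26, edgeR adjusted p = 0.000504), within an oxidative stress list of 24 with 5 higher (2 without affected replicate 2) and 2 lower (0 to 3 with any 1 library left out).

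The circadian list had 5 of 25 members higher and 3 lower (1 without affected replicate 3). *per2*, a light-induced repressor of the clock, had 14.7, 14.7 and 9.94 CPM in wild-type, 38.8, 44.5 and 26.2 in unaffected and 41.5, 44.4 and 36.2 in affected libraries (log2 fold change 1.63 ± 0.21, edgeR adjusted p = 0.000526). *cry5* rose as well (0.84, edgeR adjusted p = 0.00476) and *bhlhe40*, a repressor of clock genes, fell (-1.17, adjusted p = 0.0100). The labels give no time of day for the collection of any library. Epidermis and neural plate border genes had 9 of 31 lower (4 without affected replicate 1) and 2 higher, and innate immunity 7 of 22 higher (4 without affected replicate 2) and 3 lower. The hypoxia list had 2 higher and 2 lower of 16 (1 higher without affected replicate 2, 4 lower without affected replicate 3), in which the carbonic anhydrase *ca9* (-1.13, edgeR adjusted p = 0.00456) and the collagen hydroxylase *p4ha1* (-1.56, adjusted p = 0.00815) fell and *epas1a*, a hypoxia-inducible factor, rose (0.68, adjusted p = 0.00233).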
